A study of Mus musculus with 6 samples.

Results

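The genes described here encode the proteins of the cytosolic ribosome in mouse CD4+ T cells. They are the rows of the deposited tables whose name is Rpl or Rps followed by a number and at most 1 of the letters a, l, x or y, together with Rpsa and the stalk proteins Rplp0, Rplp1 and Rplp2. The rule used names and no measured value, and it found 81 of 21362 genes, 50 of the large subunit and 31 of the small subunit. RNA sequencing was done on 6 libraries of CD4+ T cells in a series about regulatory T cells with and without sorafenib, an inhibitor of several protein kinases. The labels number the libraries but do not say which were treated, how the cells were cultured, or whether they came from separate mice. All 6 libraries were therefore left without a group, no library was averaged with others as a replicate, and no test between them was made. Values listed in a series are for library 1 to library 6 in that order.

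Ribosomes translate mRNA into protein, and each carries a single copy of nearly every ribosomal protein around a core of ribosomal RNA. The small subunit reads the mRNA, and the large subunit joins the amino acids and passes the new chain out through a tunnel. T cells step up the making of ribosomes after activation, under the control of the kinase mTOR and the factor Myc. Most ribosomal protein mRNAs begin with a short run of C and T letters, the terminal oligopyrimidine tract, through which mTOR and the RNA-binding protein Larp1 control their translation.

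Total counts ran from 32435799 to 36316162 reads per library. CPM here are read counts relative to library size after composition scaling with factors from 0.958 to 1.04, which compare libraries but not genes. FPKM are the deposited values, which also divide by gene length. The 11516 genes that averaged 1 CPM or more were called measured. By the range of a gene is meant the ratio of its highest to its lowest library, after adding a prior count of 2. All 8 genes of T cell identity were measured, with Cd3e between 200.3 and 218 CPM. Cd4 itself stood at 436, 426, 411.8, 479.7, 474.5 and 482 CPM, highest in libraries 4, 5 and 6. The list had the other order, as its median deviation from each gene's own median was 0.15, 0.11, 0.08, -0.15, -0.10 and -0.08 in log2 CPM. Among 12 marker genes of other cell types, 5 were measured, and the summed level of the 12 lay between 47.6 and 91.7 CPM. Cd8a of cytotoxic T cells lay between 0.231 and 0.661 CPM, and Csf1r, Lyz2 and Hba-a1 of myeloid and red cells had 0 to 5 reads per library. Epcam, an epithelial adhesion gene, stood at 40.6, 44.6, 46.1, 14.0, 14.0 and 13.4 CPM, the same libraries being high as for most ribosomal protein genes, and the part of these lists in the results was not tested. In bulk RNA, fewer cells of a type and less RNA per cell cannot be told apart.

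Ribosomal protein genes took 14.9%, 15.3%, 15.2%, 14.5%, 14.5% and 14.6% of all counts. The exact Clopper-Pearson 95% interval of the highest share, in library 2, ran from 15.33% to 15.35%, and that of the lowest, in library 4, from 14.47% to 14.50%. These intervals cover counting error only, since PCR-amplified reads without molecular identifiers are not independent molecules. Large subunit genes took 8.90%, 9.13%, 9.01%, 8.53%, 8.56% and 8.63% of counts, and small subunit genes 6.02%, 6.21%, 6.13%, 5.95%, 5.97% and 6.01%. The ratio of large to small subunit counts, which no scaling can move, was 1.48, 1.47, 1.47, 1.43, 1.43 and 1.44. Of the 81 genes, 80 were measured, and 78 averaged 10 CPM or more.

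Levels per length placed these genes among the most abundant of the cell. The median member stood at 1944 FPKM, against 7.58 FPKM for the median measured gene, and 67 members were among the 100 genes with the highest mean FPKM. Rpl41, the smallest ribosomal protein, led with 5322, 5467, 5520.0, 4845, 4841 and 4934 FPKM. Rplp1, an acidic protein of the stalk that recruits elongation factors, followed with 5183, 5122, 5173, 4961, 4908 and 4839.7 FPKM. The ranges of these genes overlapped. Rps18, at the top of the small subunit head, stood between 4718 and 5039.7 FPKM, and Rpl32 between 4282 and 4701 FPKM. Rplp0, the base of the stalk, lay between 4147 and 4612 FPKM, Rps14 between 4107 and 4565 FPKM, Rps27 between 3999.9 and 4624 FPKM, and Rpl12 between 4131 and 4292 FPKM. From Rpl32 to Rpl12 each of these 5 genes overlapped with its neighbours in the order, while Rps18 lay above Rpl32 in every library.

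**Figure D1:**
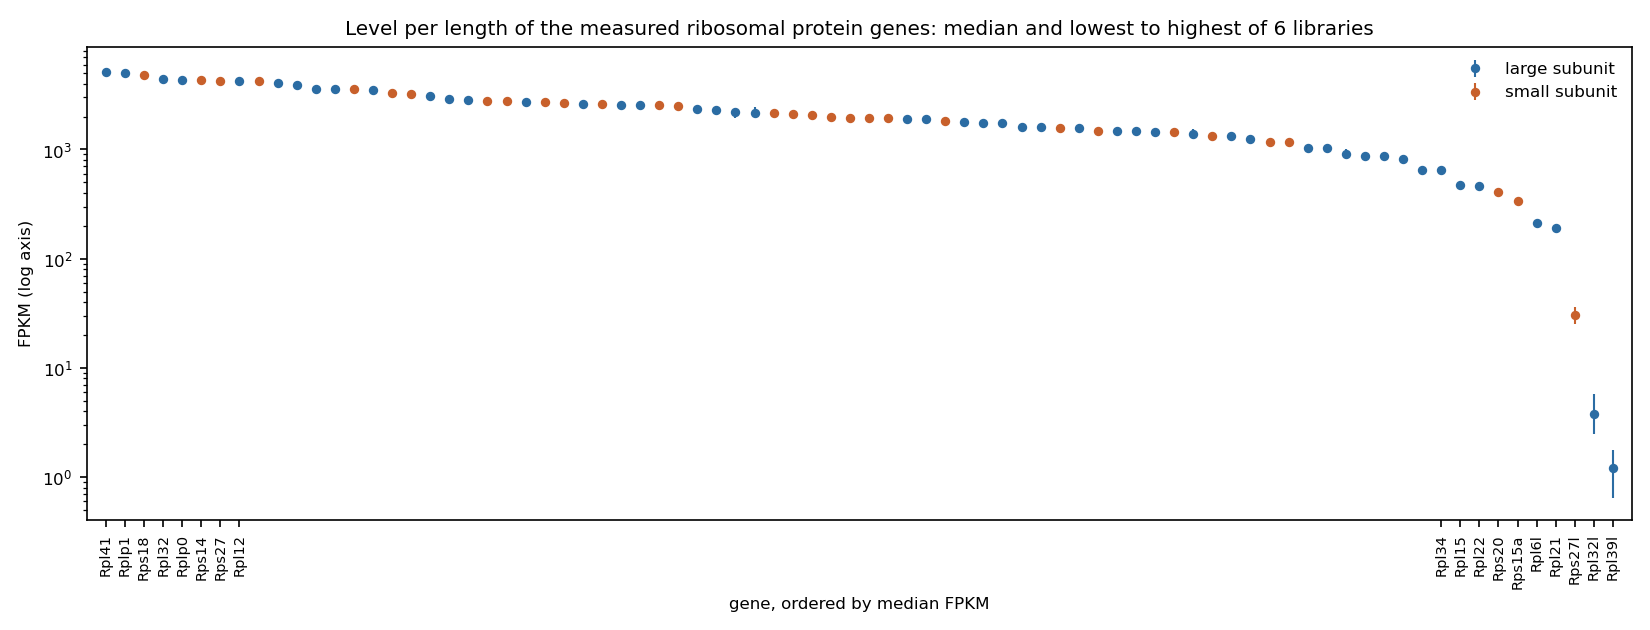
Level per length of the 80 measured ribosomal protein genes in FPKM on a log axis, ordered by the median of 6 libraries, with lines from the lowest to the highest library, colours for the subunit, and names at the 8 highest and 10 lowest genes. Most genes lie within 1 order of magnitude of each other, while Rps27l, Rpl32l and Rpl39l lie far below. The place of Rps27l depends on the length its FPKM was divided by, 2748 bases.

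Levels differed widely between members. The mean FPKM of the member at the 90th percentile was 8.91 times that at the 10th, 4204 against 472. Small subunit genes had a median of 2113 FPKM and large subunit genes of 1753 FPKM. The order of members was nearly the same in every library, with Spearman's rho across genes between 0.9935 and 0.999 over 15 pairs of libraries, where genes are not independent replicates. FPKM also depends on the length the authors divided by. Among genes averaging 10 CPM or more, the length implied by count and FPKM ran from 322 bases for Rps29 to 5136 bases for Rps15a, with a median of 830.0 bases. Rps15a (335 FPKM in the median library) and Rps20 (408 FPKM, 3641 bases) had the longest implied lengths and stood near the bottom of the order. Across the 78 genes, Spearman's rho between mean FPKM and implied length was -0.50, which is a description, since length is part of FPKM.

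Genes at the bottom of the order were mostly copies or paralogs of other members. Rpl3l, a paralog of Rpl3 known from striated muscle, had 3, 0, 4, 0, 1 and 1 reads, at or near the floor of 3 counts that stands for 0.0791 to 0.0966 CPM. Rpl39l, a paralog of Rpl39 known from testis, stood at 1.13, 1.24, 1.58, 0.659, 0.949 and 0.534 CPM. Its 95% interval was 1.19 to 2.05 CPM in library 3 against 0.322 to 0.834 CPM in library 6. Rpl32l, a copy of Rpl32, stood at 1.54, 3.04, 2.18, 2.06, 3.28 and 2.28 CPM, and its interval was 1.14 to 2.05 in library 1 against 2.70 to 3.94 in library 5. These 2 genes were the only measured members to range 1.5-fold or more, at 2.76-fold and 2.08-fold, each on few reads. Without library 1 the range of Rpl32l was 1.57-fold. Rpl6l, which RefSeq lists as a pseudogene, was higher, with 210.5, 209, 208, 189.5, 176 and 177 CPM. Rpl21, a large subunit protein with many genomic copies, had the lowest FPKM of the canonical genes, at 185, 193, 186, 190.0, 189 and 193 FPKM. Its libraries lay close together in FPKM. In CPM it stood at 400, 416, 398, 376, 375 and 386, a range of 1.11-fold with libraries 1, 2 and 3 above the others. Rps28, a small protein near the mRNA exit, stood at 576, 601, 586, 523, 549 and 549.6 CPM.

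Copies matter for counting, because reads that match several places may be dropped or split. In the principal GENCODE transcript of each gene, the share of 100-letter windows also present in a transcript of another gene was 0% for 8 genes, among them Rpl22, Rpl32, Rps3 and Rps21. It was 91.6% for Rpl10 and 98.4% for Rps27. Windows of Rpl21 were found in 40 other genes, those of Rpl7a in 37 and those of Rps2 in 36. Across 77 genes, Spearman's rho of this share was -0.07 with the range over libraries. The 14 rows of the table named as ribosomal protein pseudogenes summed to between 68.3 and 80.2 CPM, most of it from Rpl34-ps1, which stood between 50.7 and 60.4 CPM. What multi-copy reads contributed to any member was not tested.

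Start sites were examined because the terminal oligopyrimidine tract is a feature of this family that the name rule did not use. RefSeq promoter windows of GRCm38.p6, from 250 bases before to 50 after each annotated start, were found for 60 of the 81 genes. Shown are 9 of the members named for a high level, a large range or a small range, and the kinase target Rps6. Each has 15 bases before the annotated start and 15 from it. Capitals mark the longest run of at least 5 C or T letters that begins within 5 bases of that start. Most of the genes shown hold a run, whereas 26 of the 60 do. Rpl41, Rpl24 and Rpl9, named on the same grounds, hold none and are not shown.
Rps18, chr17:33955651-33955680, minus strand: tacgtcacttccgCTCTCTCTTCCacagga
Rpl12, chr2:32961697-32961726, plus strand: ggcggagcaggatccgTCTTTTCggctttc
Rps27, chr3:90213634-90213663, minus strand: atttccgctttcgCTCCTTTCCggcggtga
Rpl38, chr11:114668565-114668594, plus strand: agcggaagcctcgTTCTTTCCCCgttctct
Rplp2, chr7:141447636-141447665, plus strand: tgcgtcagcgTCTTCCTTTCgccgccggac
Rps26, chr10:128626492-128626521, minus strand: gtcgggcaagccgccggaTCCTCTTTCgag
Rpl15, chr14:18270972-18271001, minus strand: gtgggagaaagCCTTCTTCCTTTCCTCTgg
Rps6, chr4:86857353-86857382, minus strand: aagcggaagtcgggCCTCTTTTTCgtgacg
Rpl37a, chr1:72711245-72711274, plus strand: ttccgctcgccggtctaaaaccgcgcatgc
Rplp0, chr5:115559452-115559481, plus strand: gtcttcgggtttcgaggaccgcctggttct

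A run of this kind was present in 26 of the 60 genes, or 43.3%, against 25.3% of 27025 genes with a promoter window and 26.8% of the 9164 of these that were measured. Runs of at least 7 letters were present in 31.7% of members, against 8.88% of all genes and 9.21% of measured genes. Genes with a run were found at both ends of the ranges below, with Rps27 and Rpl38 among the largest and Rpl15 and Rps26 among the smallest. Rpl37a, which had the largest range among members averaging 10 CPM or more, and Rplp0 held none by this definition, and an annotated start can lie some bases from the start used in these cells. The sequence CCGGAAGT, bound by ETS factors such as Gabpa, was found on either strand in any window of 12 of 60 genes, against 4.31% of all genes and 9.92% of measured genes. ATGGCGGC, a core of YY1 sites, was found in 4 genes, or 6.67%, against 2.60% and 6.14%. GGGCGG, the Sp1 box, was found in 58.3% of members, against 38.2% of all genes and 68.8% of measured genes. The E-box CACGTG was found in 6 of 60 genes, against 2187 of 27025 among all genes and 1099 of 9164 among measured genes. TATAAA was found in 11.7% of members, against 15.7% of all genes and 8.37% of measured genes. For these last 3 motifs the members' share lay between those of the 2 backgrounds. All were searched on both strands, none of them contains another, and a match is a description of the letters and not of binding.

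Ribosomal protein genes varied less over the libraries than most genes. The median member ranged 1.17-fold, against 1.29-fold for the median measured gene. Of the 80 measured members, 20 ranged 1.2-fold or more, where 67.7% of all measured genes did. Only Rpl39l and Rpl32l ranged 1.5-fold or more, as 27.6% of measured genes did, and both ranged 2-fold or more, as 10.5% did. Abundance differs between these sets, so the other 271 genes that averaged 400 CPM or more were set beside the 75 members at that level. Those genes had a median range of 1.21-fold and 138 of them, or 50.9%, ranged 1.2-fold or more, while the 75 members had a median of 1.17-fold and 17 past that fold. In all 80 measured members the 95% counting intervals of the highest and the lowest library lay apart. Those libraries were picked by the same values. Other genes were not counted in this way, so it is not shown to be particular to the family. Large subunit genes had a median range of 1.18-fold, with 16 of 49 past 1.2-fold, and small subunit genes 1.149-fold, with 4 of 31.

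**Figure D2:**
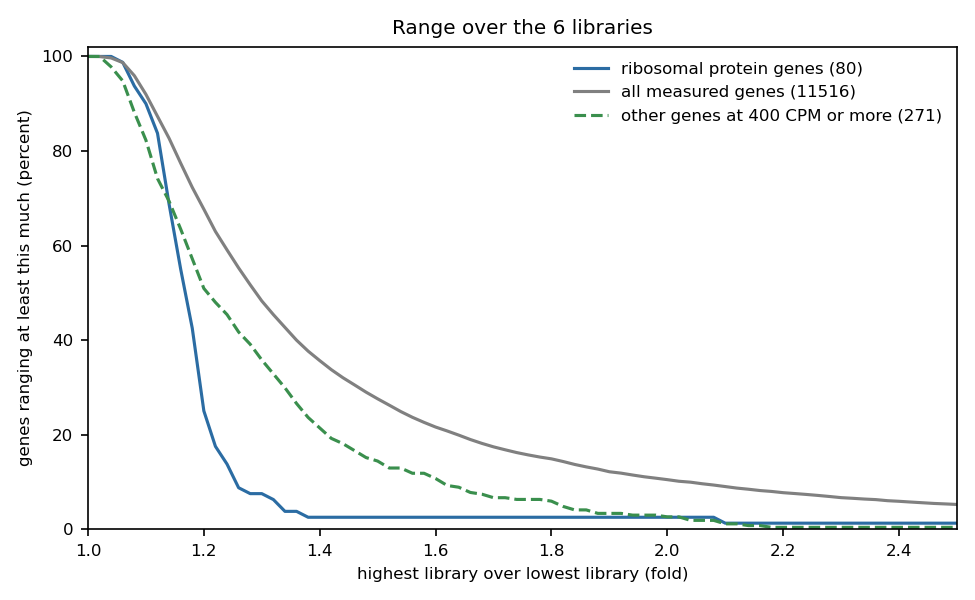
Percent of genes whose highest library exceeds their lowest by at least the fold on the x axis, for the 80 measured ribosomal protein genes, all 11516 measured genes, and 271 other genes that averaged 400 CPM or more. The ribosomal protein curve drops below both others before 1.2-fold and is near its floor past 1.4-fold, where Rpl39l and Rpl32l remain.

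Most members shared a pattern over the libraries. Each library's deviation was taken as log2 CPM less the median of that gene, and its median over the members was 0.07, 0.11, 0.08, -0.09, -0.09 and -0.07, a range of 0.21. Libraries 1, 2 and 3 thus lay above and libraries 4, 5 and 6 below the members' own medians. The highest library was library 2 for 59 of 80 genes, and the lowest was library 4 for 44 and library 5 for 28. Members above their own median numbered 72, 79, 75, 2, 4 and 8. Such counts were not made over all measured genes, whose median deviation moved by only 0.01 over the libraries. Composition scaling tends to hold that median near 0. Other genes averaging 100 CPM or more had the same libraries above and below. The 1921 with an implied length above 700 bases deviated by a median of 0.065, 0.0495, 0.0405, -0.0513, -0.0508 and -0.0544. The 24 shorter ones deviated by 0.019, 0.0883, 0.0579, -0.0296, -0.042 and -0.0558. The order was thus not particular to the family. The members' median deviation was 0.07, 0.12, 0.08, -0.10, -0.09 and -0.07 for the large subunit and 0.06, 0.10, 0.08, -0.08, -0.08 and -0.06 for the small subunit.

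The size of this pattern depended on the scaling. With plain total counts the members' median deviated by 0.01, 0.06, 0.03, -0.03, -0.03 and -0.01, a range of 0.09. With total counts 6 members ranged 1.2-fold or more, where 69.8% of all measured genes did. That scaling moved the median of all measured genes by 0.12 over the libraries, to -0.07, -0.06, -0.04, 0.06, 0.06 and 0.05. Relative to the median of all genes, the members' range was 0.21 with composition scaling and 0.20 with total counts, with the same 3 libraries above in both. A scaling factor moves members and other genes nearly alike, so these values could hardly differ and their likeness is no support for the pattern. For some members the share of all ribosomal protein counts, which no scaling factor can move, is therefore given too. On that scale 19 of 56 named members had the same highest library as in CPM and 25 the same lowest, so the order of libraries given in CPM for a single gene need not hold as a share.

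**Figure D3:**
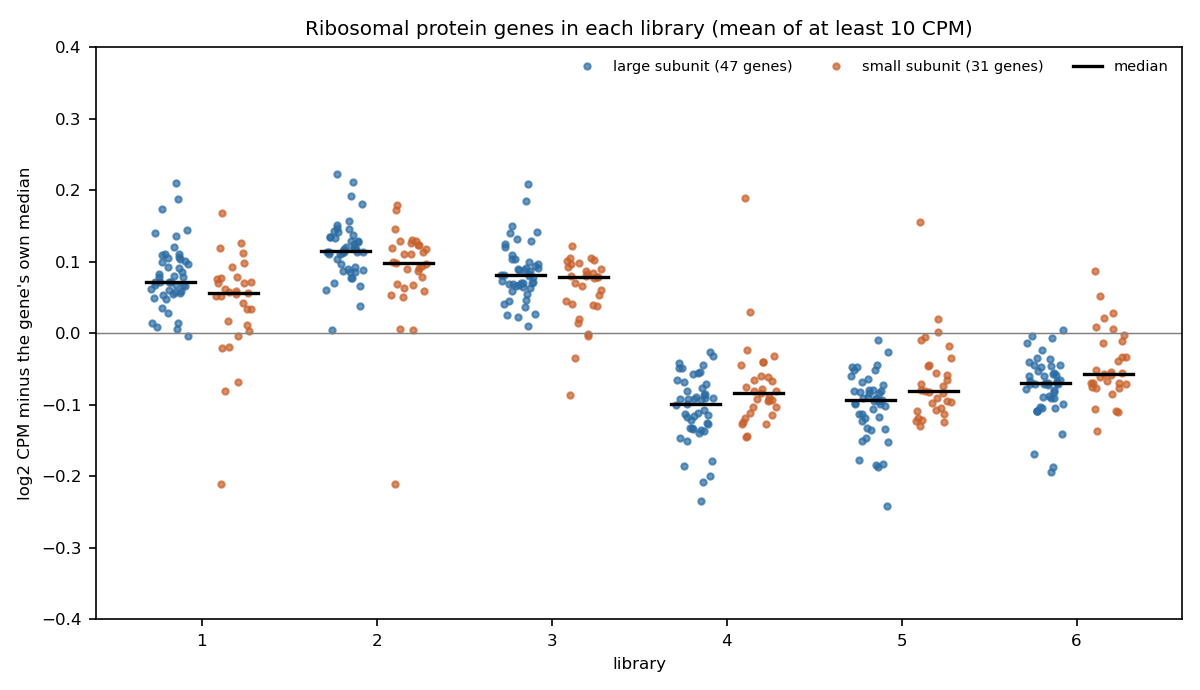
Deviation of each ribosomal protein gene from its own median over the libraries in log2 CPM, for 47 large and 31 small subunit genes averaging 10 CPM or more, with a black bar at the median of each subunit. Points of libraries 1, 2 and 3 lie mostly above 0 and those of libraries 4, 5 and 6 mostly below, with 1 small subunit gene, Rps27l, far to the other side.

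Of the 10 members with the largest ranges among those averaging 10 CPM or more, 7 were of the large subunit and 3 of the small subunit. Rpl37a, a zinc-binding protein, stood at 1461, 1442, 1435, 1074, 1112 and 1104 CPM, a range of 1.36-fold. Every value of libraries 1, 2 and 3 lay above every value of the others. As a share of ribosomal protein counts Rpl37a took 0.938%, 0.901%, 0.916%, 0.774%, 0.799% and 0.779%, a range of 1.21-fold. Rpl38, a protein known for its part in translating Hox mRNAs in the embryo, stood at 646, 663, 646, 517, 495 and 531 CPM. Rpl36 stood at 1238, 1258, 1256, 941, 955 and 955 CPM, with a share of 0.795%, 0.786%, 0.801%, 0.679%, 0.686% and 0.674%. These genes had libraries 1, 2 and 3 apart from the rest on both scales.

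Further genes of large range had the same high libraries in CPM. Rpl24, which bridges the 2 subunits, stood at 1659, 1717, 1587, 1356, 1359 and 1364 CPM. Rpl39, at the wall of the exit tunnel, stood at 1110.1, 1161, 1085, 925, 972 and 1019.6 CPM. In Rpl39 the gap was narrower, with library 6 near library 3. Rps27, a zinc-finger protein of the small subunit, stood at 1654, 1668, 1603, 1334, 1354 and 1339 CPM, and Rps21 at 796, 850.1, 806, 682, 714 and 715 CPM. Rpl9, which lies near the base of the stalk, stood at 2157, 2251, 2174, 1885, 1813 and 1964 CPM. Rplp2, the partner of Rplp1, stood at 1514, 1477, 1506, 1229, 1287 and 1349 CPM. As a share of ribosomal protein counts, Rpl24 and Rps27 kept libraries 1, 2 and 3 above the others. The libraries intermingled in share for Rpl39, with 0.713%, 0.726%, 0.692%, 0.667%, 0.699% and 0.720%, and for Rps21, Rpl9 and Rplp2.

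Ranges were also set beside coding length. Among members averaging 10 CPM or more, 10 of 26 with a coding sequence of at most 400 bases had a range past 1.2-fold. Of 51 longer ones 8 did, where 67.7% of all measured genes did. The shorter genes had a median range of 1.18-fold, from 1.07 to 1.36, and the longer ones 1.16-fold, from 1.05 to 1.27. Spearman's rho across 77 genes between range and coding length was -0.25. Of the other genes averaging 100 CPM or more, 24 with an implied length of at most 700 bases had a median range of 1.151-fold and 1921 longer ones 1.19-fold. The split was chosen after the values were seen, and the part of length in the ranges was not tested.

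Rps27l was the member farthest from the shared pattern, with the opposite order. It encodes a paralog of Rps27 and is a known target of the tumour suppressor p53. It stood at 72.2, 72.2, 78.7, 95.3, 93.1 and 88.8 CPM, a range of 1.32-fold, or 1.44-fold with plain total counts. The 95% interval was 69.2 to 75.2 CPM in library 1 against 92.2 to 98.4 CPM in library 4. Libraries 4, 5 and 6 all lay above libraries 1, 2 and 3, on either scale and as a share of ribosomal protein counts, where the range was 1.52-fold. Of the summed FPKM of Rps27 and Rps27l, the paralog made up 0.546%, 0.542%, 0.614%, 0.891%, 0.859% and 0.828%. The FPKM of Rps27l rests on an implied length of 2748 bases, whereas its principal GENCODE transcript has 499 bases. The size of its part therefore depends on the length used, and in reads Rps27 stood between 1334 and 1668 CPM. Trp53, which encodes p53, stood at 78.8, 78.0, 78.4, 87.9, 86.3 and 87.3 CPM, and Cdkn1a, another p53 target, at 756, 766, 757, 595, 616 and 634 CPM. Cdkn1a was thus high in the libraries where Rps27l was low.

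Members with the smallest ranges were mostly of the small subunit. Rpl15, a protein of the large subunit core, stood at 947, 944, 958, 909.6, 910.5 and 939 CPM, a range of 1.05-fold. Rps2, at the mRNA entry channel, stood at 2614, 2748, 2732, 2665, 2777 and 2750.5 CPM, with library 1 lowest and library 5 highest. Rps26, at the mRNA exit, ranged from 1099 to 1170 CPM, Rps20 from 1439.6 to 1534 CPM and Rps29 from 804 to 865 CPM. In Rps2, Rps20 and Rps29 the values of libraries 4, 5 and 6 intermingled with the others, whereas in Rpl15 and Rps26 they lay below by a small margin.

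Since most members were lower in libraries 4, 5 and 6, a flat level in CPM was a larger share of the family there. Rps2 took 1.678%, 1.718%, 1.743%, 1.921%, 1.995% and 1.942% of ribosomal protein counts, a range of 1.19-fold. Rpl15 took 0.608%, 0.590%, 0.611%, 0.656%, 0.654% and 0.663%, so its order was turned on this scale. With plain total counts, Rps2 stood at 2504, 2635, 2641, 2783, 2899 and 2842 CPM, so libraries 4, 5 and 6 were the highest. Among the 78 members averaging 10 CPM or more, 3 had a range in share past 1.2-fold, Rpl37a and Rps27l among them, and the median range in share was 1.06-fold.

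**Figure D4:**
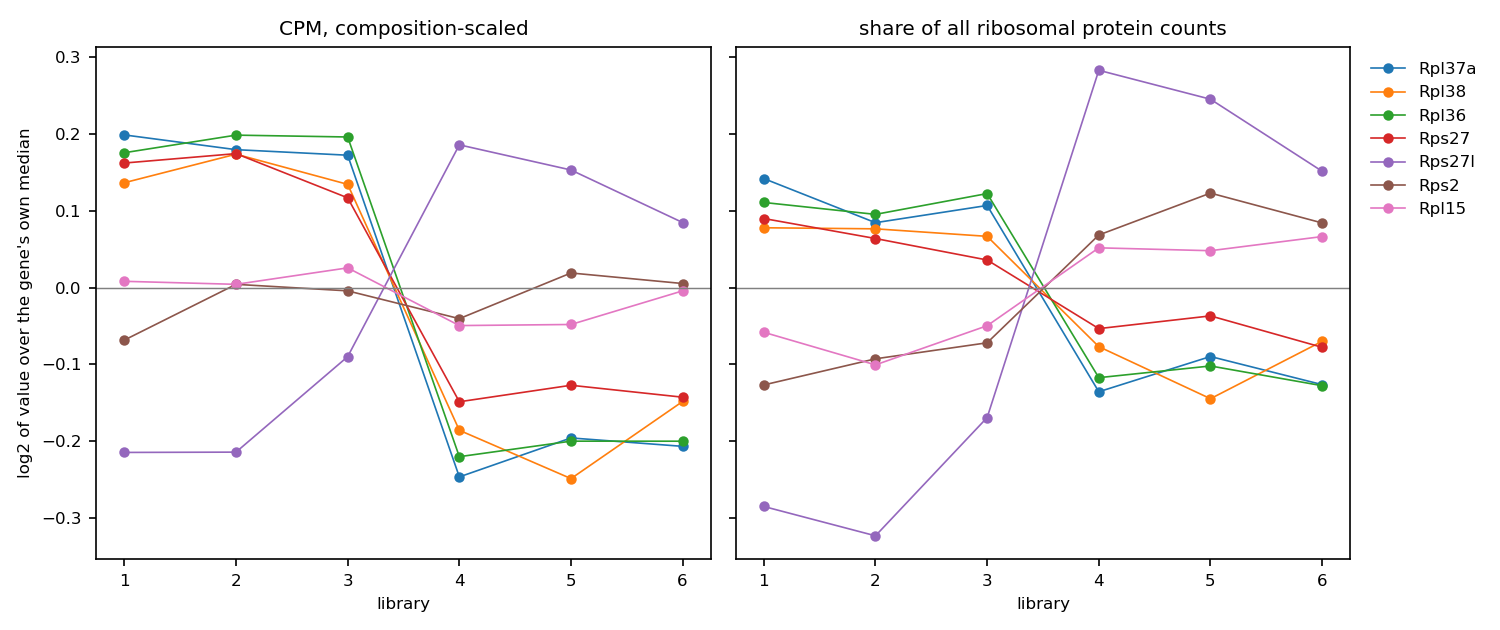
Log2 of each value over the gene's own median in libraries 1 to 6, as composition-scaled CPM on the left and as a share of all ribosomal protein counts on the right; lines only join the points of a gene. Rpl37a, Rpl36, Rpl38 and Rps27 are higher in libraries 1, 2 and 3 on both scales, Rps27l is lower there on both, while Rps2 and Rpl15 lie near 0 in CPM and below 0 in libraries 1, 2 and 3 as a share.

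By place in the ribosome, ranges were similar and small. In the stalk, the 4 genes ranged from 1.12-fold for Rpl12 to 1.23-fold for Rplp2. Rplp0 stood at 6370.3, 6405, 6489, 5402, 5402 and 5512 CPM, Rplp1 at 2532, 2500.1, 2505, 2223, 2200.2 and 2192 CPM, and both were higher in libraries 1, 2 and 3. The 4 genes near the peptidyl transferase centre, Rpl3, Rpl4, Rpl8 and Rpl10, ranged between 1.101-fold and 1.14-fold. Along the rim of the exit tunnel, 4 of 8 genes ranged 1.2-fold or more, with Rpl39 at 1.26-fold the widest, where 20 of 80 members and 67.7% of all measured genes did. Rpl22, a protein of that rim needed for the development of alpha-beta T cells, stood at 1107, 1135, 1082, 924, 954 and 958 CPM.

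The particle of 5S RNA with Rpl5 and Rpl11 can leave the ribosome and bind Mdm2, the ligase that degrades p53. Rpl5 stood at 3758, 3853, 3774, 3395, 3382 and 3475 CPM and Rpl11 at 1466, 1494, 1450.5, 1266, 1294 and 1316 CPM. Both had libraries 1, 2 and 3 above the others in CPM. As a share of ribosomal protein counts Rpl5 was the other way, with 2.412%, 2.408%, 2.408%, 2.447%, 2.430% and 2.453%, and in Rpl11 the libraries intermingled. Mdm2 stood at 393, 410.4, 403, 358, 343 and 334 CPM, with the same libraries high. Rps6, the target of the S6 kinases below mTOR, stood at 2891, 2877, 2849.5, 2533, 2497 and 2561 CPM. Rpsa, which also binds laminin, stood at 6387, 6595, 6511, 5850.1, 5864 and 5946 CPM, while its share was higher in libraries 4, 5 and 6, between 4.197% and 4.218% against 4.100% to 4.154%. Of 18 members mutated in Diamond-Blackfan anaemia, an inherited failure of red cell production, 3 ranged 1.2-fold or more, where 67.7% of all measured genes did, and the median was 1.14-fold. Rps19, the gene most often mutated in that disease, stood at 1888, 1999, 1938, 1828, 1854 and 1941 CPM, where the libraries intermingled.

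Ribosomal proteins that the name rule leaves out had ranges of a similar size. Of 8 such genes, 2 ranged 1.2-fold or more, where 67.7% of all measured genes did, and their median range was 1.17-fold. Fau, which encodes a ubiquitin-like protein fused to the small subunit protein S30, ranged most, with 1832, 1887, 1861, 1394, 1448 and 1458 CPM. Rack1, a scaffold on the small subunit head and the gene with the most reads among them, stood at 3563, 3649, 3602, 3240.0, 3293 and 3328 CPM. Rpl22l1, the paralog of Rpl22, made up 70.3%, 70.4%, 71.7%, 73.4%, 72.1% and 70.8% of the summed FPKM of that pair. Rpl36al made up from 22.9% to 25.6% of its pair with Rpl36a, and Rpl7l1 from 0.909% to 1.19% of its pair with Rpl7. In reads the order within this pair was the reverse, since Rpl22l1 stood between 511.9 and 604 CPM and Rpl22 between 924 and 1135 CPM. The FPKM of Rpl22 rests on an implied length of 2208 bases, whereas its principal GENCODE transcript has 474 bases, so which paralog had the larger part depends on the length used.

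Genes that build ribosomes had, in their list medians, the reverse order of the ribosomal proteins. The 46 measured genes of nucleolar assembly deviated by a median of -0.17, -0.13, -0.10, 0.10, 0.13 and 0.16, with a median range of 1.32-fold. Of these genes, 31 ranged 1.2-fold or more, a share close to the 67.7% of all measured genes. With plain total counts the deviations were -0.23, -0.19, -0.15, 0.17, 0.18 and 0.20. Dkc1, the pseudouridine synthase that modifies ribosomal RNA, ranged most of this list, with 30.2, 31.2, 34.7, 46.5, 49.9 and 51.5 CPM. Npm1, the nucleolar chaperone and the most abundant of the list, did not share that order, with 3120.0, 3115, 3231, 3157, 3009 and 2924 CPM. The 15 genes of RNA polymerase I, which transcribes ribosomal RNA, deviated by -0.11, -0.04, -0.02, 0.03, 0.08 and 0.07. Polr1b, its second largest subunit, stood at 19.8, 22.9, 24.9, 29.8, 31.1 and 27.6 CPM, and Taf1d, an initiation factor gene, at 214, 209, 207, 187, 184 and 186 CPM. Among 12 chaperones and importers of ribosomal proteins, Heatr3, which carries Rpl5 to the nucleus, ranged most, at 14.0, 13.4, 14.9, 22.3, 25.4 and 24.1 CPM. Tnpo1, the importer with the most reads, had the other order, with 412, 384, 381, 350.0, 356 and 335 CPM. Rrs1, which brings the 5S particle into the large subunit, stood at 15.1, 15.3, 16.3, 23.7, 24.6 and 25.6 CPM.

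Genes that use ribosomes were split. The 9 elongation genes deviated by 0.10, 0.12, 0.06, -0.10, -0.09 and -0.09, close to the ribosomal proteins. Tpt1, whose mRNA also begins with an oligopyrimidine tract, stood at 4673, 4592, 4599, 3523, 3448 and 3594 CPM, and Eif5a, which helps ribosomes through stalls, at 750.4, 716, 733, 497, 513 and 539.7 CPM. Eef1e1, a part of the synthetase complex, ranged most, with 21.7, 21.6, 24.5, 33.3, 33.0 and 30.4 CPM, and had the opposite order. The median deviation of the 36 initiation genes lay between -0.02 and 0.03, with a median range of 1.11-fold and 5 past 1.2-fold. Pabpc1, the poly(A)-binding protein and the most abundant of them, stood at 2549, 2516, 2471, 2697, 2834 and 2879 CPM. Eif2b3, a subunit of the exchange factor for initiation, ranged most of them, at 1.42-fold. Of 15 genes that control translation of ribosomal protein mRNAs, 5 ranged 1.2-fold or more, below the 67.7% of all measured genes. Larp1 stood at 408, 425, 419, 409, 420.2 and 419 CPM, a range of 1.04-fold, and Rheb, the activator of mTOR, went from 24.5 CPM in library 1 to 33.9 in library 6.

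**Figure D5:**
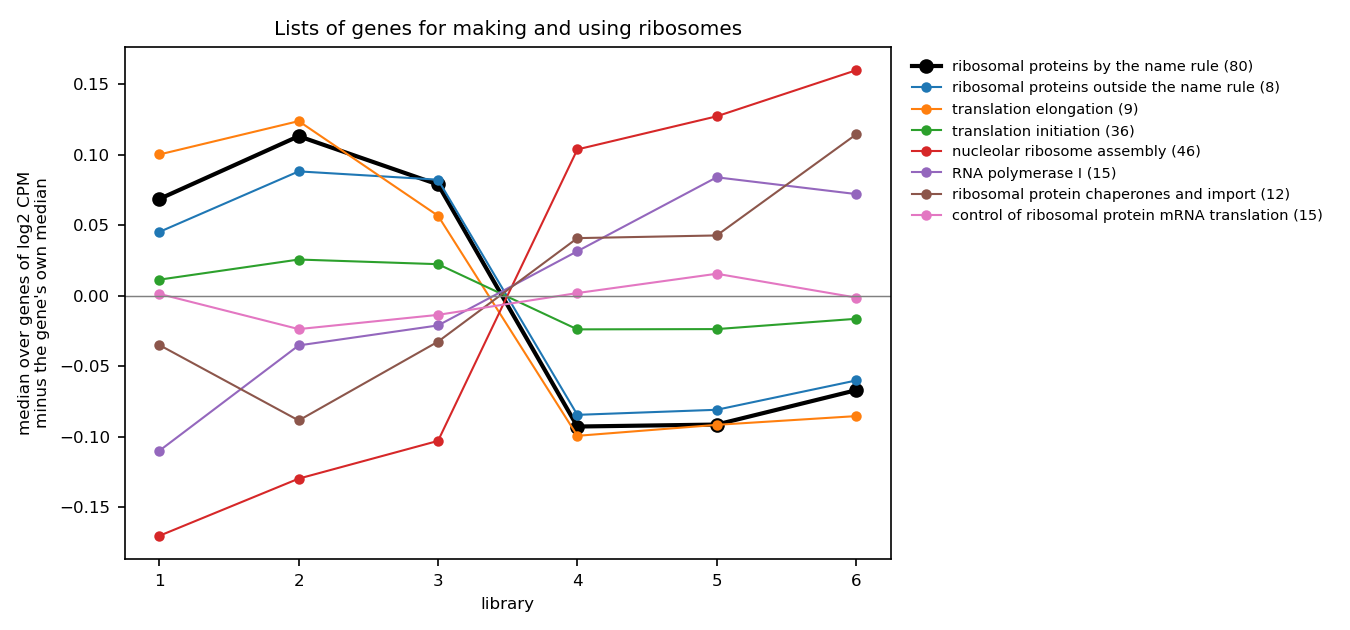
Median deviation in log2 CPM from each gene's own median, over the measured genes of each list, in libraries 1 to 6, with the number of genes in brackets; lines only join the points of a list. Ribosomal proteins and elongation genes lie above 0 in libraries 1, 2 and 3, and nucleolar assembly genes, RNA polymerase I genes and chaperones lie below 0 there.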

How the data were processed

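The 6 libraries of mouse CD4+ T cells were made from total RNA with a VAHTS kit, per the labels' protocols. According to the submitters' processing notes the tools were HTSeq, HISAT2, fastp, DESeq2 and R 3.2.0 and the build GRCm39, with no roles given. Annotation and strand setting are not given there. The authors deposited raw counts and FPKM in separate tables. The length implied by count, FPKM and total was the same for a gene in every library within a relative error of 1.91e-06. Members, gene lists and roles were chosen with earlier results of these data known.

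Counts were scaled with TMM in edgeR 4.0.16 (R 4.3.3), and log2 CPM used a prior count of 2. No model was fitted, since the labels give no groups. Named are the 8 members with the highest FPKM, the 8 with the lowest CPM, the 10 largest and 5 smallest ranges at a mean of at least 10 CPM, role groups and paralog pairs, and the most abundant and most variable gene of each list; some items are not reported here. Intervals are exact Clopper-Pearson 95% intervals. RefSeq and GENCODE sequences are of GRCm38, another assembly than the files, and 60 promoters and 79 transcripts matched. Alternatives were DESeq2 1.42.0 size factors, total counts, FPKM with a pseudocount of 0.1, filters at 5 CPM or none, a prior count of 0.5, TMM without members or mitochondrial genes, and each library left out. Ranges and scaling were tested on simulated data with counting error alone. There each changed gene, and the members together, were raised in a single library. A shift shared by several libraries was not simulated. Python 3.11.15, numpy 2.4.6, pandas 2.3.3, scipy 1.17.1 and matplotlib 3.10.9 were used.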

Additional observations from a re-analysis of the deposited data

How the results depend on the processing

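In the members' median, library 2 was highest in each alternative that included it and library 4 or 5 lowest, under every scaling, filter, prior count and omission. The range of the members' median, 0.21 log2 units, was 0.22 with DESeq2 size factors, 0.0856 with plain total counts or deposited FPKM, 0.21 with TMM computed without the members, with a minimum of 5 CPM or with the mean over members, and from 0.18 to 0.22 with 1 library left out. Members ranging 1.2-fold or more, 20 of 80, numbered 6 with total counts or FPKM and from 14 to 26 with 1 library left out. As a share of ribosomal protein counts, a scale added after seeing the data, they numbered 5. Over all measured genes, 67.7% ranged this much in the main setting and 69.8% with total counts. That share is not given for the other settings. The 2 genes past 1.5-fold and 2-fold, Rpl39l and Rpl32l, became 0 at a minimum of 5 CPM, and from 1 to 2 with 1 library left out: without library 2 or 3, Rpl39l averaged under 1 CPM and 79 members were measured, and Rpl32l ranged 1.57-fold without library 1 and 1.93-fold without library 5. The highest share of counts was 15.64% without mitochondrially encoded genes and from 15.15% to 15.34% with 1 library left out, and the lowest was 14.85% and from 14.48% to 14.53%. The spread of levels, 8.91-fold, was 4.17-fold in CPM, 8.92-fold with DESeq2 size factors, and from 8.84-fold to 8.96-fold with 1 library left out. Start-site runs were found in 12 of 60 genes when starting within 2 bases, against 3255 of 27025 genes and 1200 of 9164 measured genes, in 19 at 7 letters, and in 39 (65.0%) within 10 bases, against 42.1% and 43.4%. Of 57 named members, 44 kept their highest and 39 their lowest library with total counts. No paired analysis was possible because the labels give no groups. Depth limits only the lowest members, since 3 counts stand for at most 0.0966 CPM.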
